A study of Rattus norvegicus with 4 samples.

Results

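The RNA of embryonic rat cortical cells grown on the hydrogel named NL-SFMA was compared with that of cells grown on the plain SFMA hydrogel. The genes compared were those with an FPKM (reads scaled for gene model length and for the total of the library) of at least 1 in either library, 12184 of the 18755 genes listed. The gene nearest to this threshold from above was Irak2 with 1.0001 FPKM in its higher library, and the nearest below it was Rig1 with 0.99987 FPKM. The labels describe primary cortical cells of Sprague Dawley embryos at embryonic day 16, seeded at 100000 cells per well and kept for 24 h in Neurobasal medium with 2% B27 and 1% PS. The 4 hydrogels were plain SFMA and the versions named N-SFMA, L-SFMA and NL-SFMA, each with 5 parallel wells and 1 library. The sources used here do not give the meaning of the letters N and L, or how the wells of a hydrogel became its library. The treatment labels write L@SFMA and NL@SFMA for 2 of the hydrogels, and both spellings were read as the same material. The subject of the series is neural growth in hydrogels that carry a cue for adhesion between cells.

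At this stage of rat development the cortex holds dividing radial glia, intermediate progenitors and young neurons that are extending axons and dendrites. In a culture plated from it, neurons attach through adhesion molecules of the cadherin, immunoglobulin and integrin families and build a microtubule-filled process within the first day. Most subunits of the mitochondrial respiratory chain are encoded by nuclear genes. A small set of its core subunits is transcribed inside the mitochondrion from mitochondrial DNA, so both genomes contribute to the same complexes.

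With 1 library a hydrogel there is no spread between cultures, so no difference below has a test or a p-value. Unless another quantity is named, a "difference" is log2(FPKM + 1) in NL-SFMA minus the same in SFMA, after removal of the trend of that value with gene model length, and a positive value means higher on NL-SFMA. A pseudocount of 1 understates the differences of genes with low values. The FPKM values of a gene are given in the order plain SFMA, then N-SFMA, L-SFMA and NL-SFMA. Values of N-SFMA and L-SFMA stand beside those of NL-SFMA as separate measurements against the same SFMA library, which all 3 comparisons share. Folds are ratios of read counts, scaled to the library totals, without a pseudocount and without length removal, with an exact 95% interval conditional on both counts. The intervals cover counting error only, because reads counted without molecular identifiers can be copies of 1 molecule.

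The libraries held between 14172205 (NL-SFMA) and 17553098 (SFMA) reads assigned to genes. The labelled cell type was checked against its markers. Tubb3, the tubulin of neurons, stood at 1882, 2602, 1957 and 1659 FPKM and the excitatory neuron factor Neurod6 at 197, 227, 216 and 238 FPKM. The deep layer factor Tbr1 was at 69.8 FPKM in SFMA and 118 in NL-SFMA, and the interneuron enzyme Gad1 at 6.55 FPKM in SFMA and 8.14 in NL-SFMA. Radial glial Vim was at 1088, 535, 486 and 633 FPKM. Markers of other cell types were at mixed levels. The astrocyte channel Aqp4 (0.0290 FPKM in SFMA and 0.192 in NL-SFMA), the microglial receptor P2ry12 (0.0551 FPKM in SFMA and 0.0227 in NL-SFMA), the endothelial adhesion molecule Pecam1 (0.242 FPKM in SFMA and 0.158 in NL-SFMA), the myelin gene Mag (0.108 FPKM in SFMA and 0.0268 in NL-SFMA) and fibroblast Dcn (0.0906 FPKM in SFMA and 0.0374 in NL-SFMA) were near 0. These were chosen as well known ones after their values were seen, and other genes on the lists of the same cell types were well above 0 in SFMA.

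The summed levels of the genes found, in the order of the libraries given above, were 509, 268, 317 and 179.7 FPKM for astrocytes, 90.4, 42.6, 57.9 and 33.7 FPKM for microglia and macrophages, and 47.7, 41.4, 39.7 and 26.7 FPKM for the oligodendrocyte lineage. They were 45.3, 34.9, 45.4 and 29.9 FPKM for endothelial cells and pericytes and 364, 208, 202 and 103 FPKM for meningeal fibroblasts. Of these 5 sums, all were lower in NL-SFMA than in SFMA. The sum over all 18755 genes listed was lower too, at 438555 FPKM in SFMA and 361215 in NL-SFMA. The length trend is not removed from any of these sums. The fibroblast sum was mostly Igfbp2, an insulin-like growth factor binding protein that other cells also make, at 336, 182, 178 and 82.7 FPKM (-1.22), which was singled out after its values were seen. Of the 21 endothelial and pericyte genes found 4 passed the FPKM threshold, and of the 16 meningeal fibroblast genes 4. The part of these cell types in the other differences was not tested.

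A gradient with gene length ran through the measured differences. Genes with models under 1 kb had a median of -0.95 (842 genes), those of 1 to 2 kb -0.72 (2485), those of 2 to 4 kb -0.17 (5099), those of 4 to 8 kb 0.42 (3115) and those over 8 kb 0.93 (643). Pearson's r of the measured difference with log2 length was 0.51 across genes, which are not independent replicates. Genes over 8 kb took 5.05% of the SFMA reads and 10.8% of the NL-SFMA reads. The read-weighted median length was 2851 bases for SFMA and 3626 for NL-SFMA, with N-SFMA (3278) and L-SFMA (3438) in between. The gradient was shallower for N-SFMA, with medians of -0.49 under 1 kb and 0.44 over 8 kb, and for L-SFMA, with -0.61 and 0.69. Once a smooth curve on length was subtracted, the NL-SFMA class medians lay between -0.05 and 0.02. The median of all genes was -0.11 as measured and -0.01 after removal. Short genes varied most around the curve, with an SD of 1.06 under 1 kb against 0.65 for 4 to 8 kb. The part of library preparation or RNA state in the gradient was not tested. The removal used the gene model length, and whether that length matches the RNA in these cells was not tested.

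**Figure D1:**
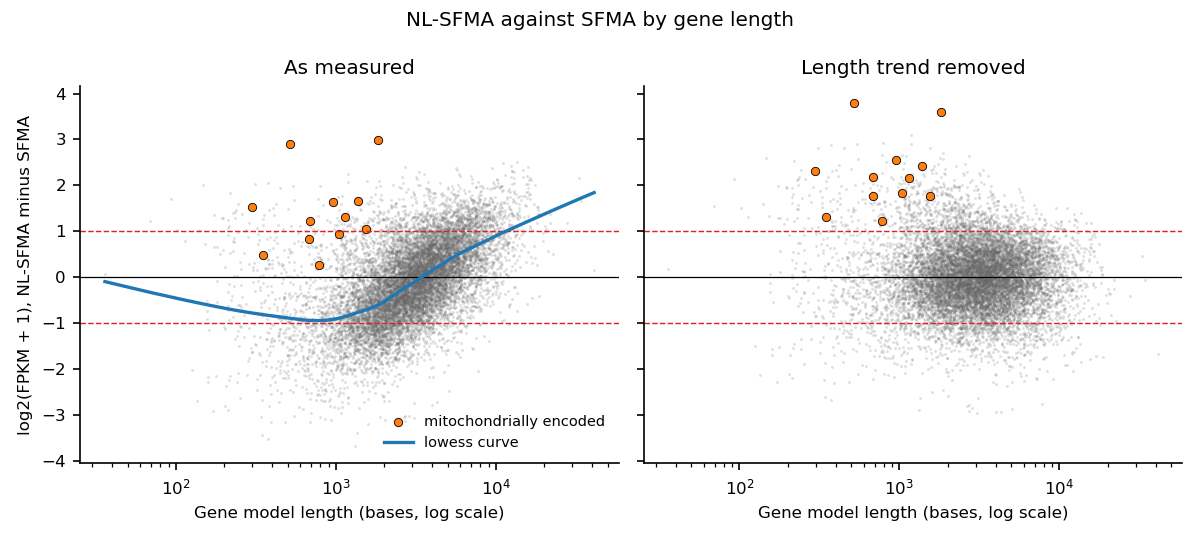
Difference of log2(FPKM + 1) between NL-SFMA and SFMA (vertical axis) against gene model length in bases on a log axis, for 12184 genes (grey points) as measured (left, with the lowess curve in blue) and with that curve subtracted (right). Dashed lines mark 2-fold, and the 12 mitochondrially encoded genes (orange) lie above the curve in both panels.

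After removal, 1007 genes (8.26%) were at least 2-fold higher and 891 (7.31%) at least 2-fold lower on NL-SFMA. As measured, 1251 were higher and 1872 lower. Of the genes called higher, 548 passed both ways, and of those called lower, 670. A further 16 genes that were 2-fold higher as measured had a negative difference once length was taken out. The higher and lower sets were not alike in makeup. Genes without an assigned symbol made up 37.7% of the higher genes, 8.87% of the lower ones and 10.05% of all those compared. Highly expressed genes were more often lower: of 797 genes over 100 FPKM, 16.2% were 2-fold lower and 5.65% higher, while of 3111 genes between 1 and 5 FPKM, 4.18% were lower and 9.93% higher.

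Functions were described with 57 gene lists, of which 55 had at least 5 compared members. For a list, members at least 1.5-fold higher or lower were counted. Over all compared genes 19.3% were 1.5-fold higher and 18.8% lower, with a median of -0.01, and each list is read beside those shares. A median of the list itself was past 1.5-fold for 13 lists, 4 higher and 9 lower. Some genes stand in more than 1 list.

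**Figure D2:**
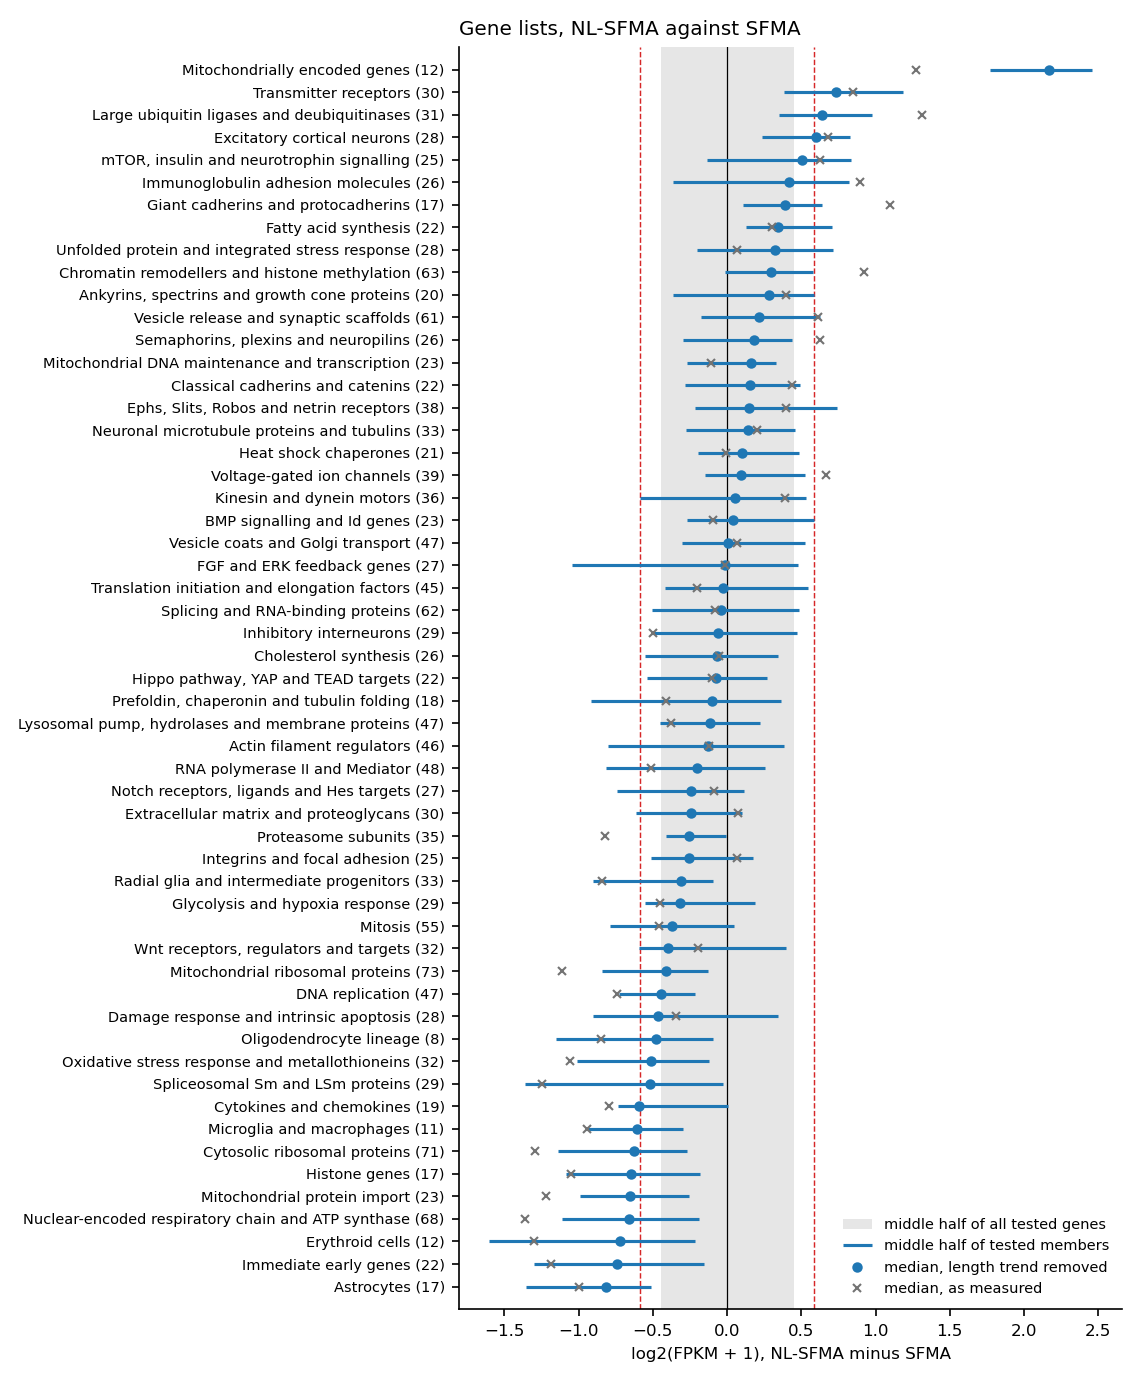
Median difference of each gene list between NL-SFMA and SFMA on the log2(FPKM + 1) scale, with the number of compared members in brackets. Blue points and bars give the median and the range from the lower to the upper quartile of the members with the length trend removed, grey crosses the median as measured, the grey band the same range of all genes and dashed lines 1.5-fold; the mitochondrially encoded genes lie farthest to the right and the astrocyte genes farthest to the left.

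Transcripts made inside the mitochondrion were the list farthest above all others. Each of its 12 compared members was at least 2-fold higher, with a median of 2.17 and a range of 1.21 to 3.79. As measured, the median was 1.27 and 12 of 12 members were above 0. Mitochondrially encoded genes took 5.89% of the NL-SFMA reads, against 2.68% for SFMA, 2.23% for N-SFMA and 2.33% for L-SFMA. The list medians of N-SFMA and L-SFMA were 0.12 and 0.24. The gene Mt-atp8 was listed at 0 in SFMA and NL-SFMA and was not compared.

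The largest differences of the list were of genes of complex I, the entry point of electrons. Members of the list not named here, of any complex, differed by less than the complex I genes given. Mt-nd5 was at 291, 400.2, 457 and 2314 FPKM, so NL-SFMA stood apart from the other 3 libraries, and its count was 7.95-fold higher (7.78 to 8.13). Mt-nd6, encoded on the opposite strand beside it, was at 177, 221, 239 and 1324 FPKM and 7.46-fold higher (7.08 to 7.87). Where reads are counted without regard to strand these neighbours can share them, and the sources used here do not give the strand setting, so their separate values are uncertain. Mt-nd1 was at 1352, 1151, 1349.6 and 4217 FPKM, a difference of 2.56. Mt-nd4 was at 1147, 1046, 1084 and 3614 FPKM, a difference of 2.42. Its neighbour Mt-nd4l, the shortest of these genes, was at 130.4, 62.4, 87.4 and 377 FPKM, with the lowest values in N-SFMA and L-SFMA.

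The catalytic subunits of cytochrome oxidase, which passes electrons to oxygen, were higher by less than the complex I genes given above. Mt-co1 was at 6393, 5554, 6239 and 13229.6 FPKM, a difference of 1.76. Mt-co2 was at 3306, 2632, 2176 and 7776 FPKM, a difference of 2.18. Mt-co3 was the member nearest to SFMA, at 5484, 3933, 3863 and 6592 FPKM, with 0.27 as measured and 1.21 after length removal, so most of its listed difference came from the correction for short genes. In the plot of mitochondrial transcripts by library NL-SFMA was the highest library for each of the 12 genes.

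**Figure D3:**
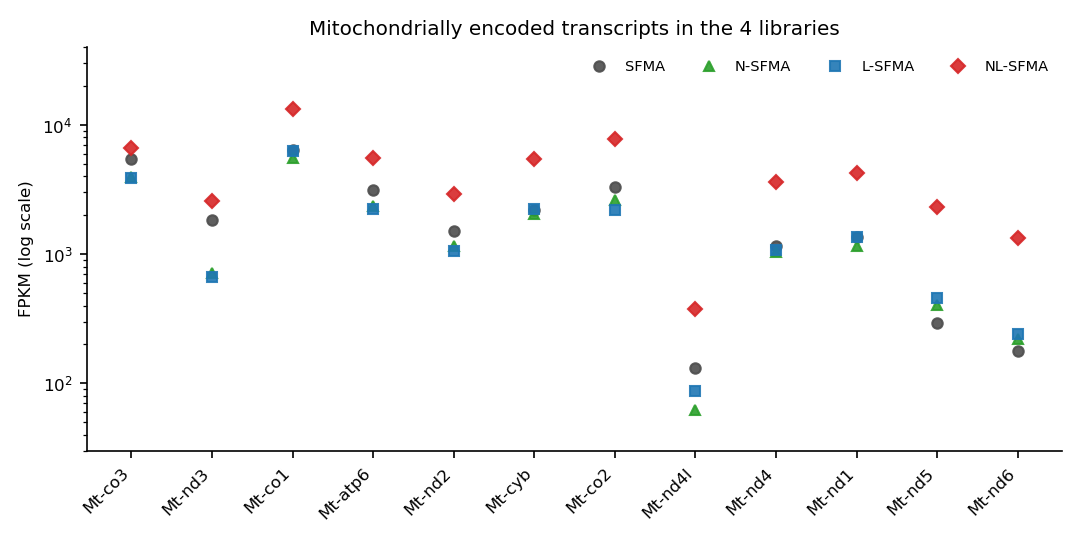
FPKM (log axis) of the 12 mitochondrially encoded genes in the 4 libraries, 1 point a library, ordered by the difference between NL-SFMA and SFMA. The red diamonds of NL-SFMA are the highest point of every gene, by the least for Mt-co3 and by the most for Mt-nd5 and Mt-nd6.

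Nuclear genes for the same respiratory chain were lower. Of 68 compared subunit genes of the complexes and ATP synthase, 35 were at least 1.5-fold lower and 1 higher, with a median of -0.66 (-1.36 as measured) beside -0.23 on N-SFMA and -0.38 on L-SFMA. The complex I subunit Ndufb6 was at 76.3, 33.7, 34.1 and 8.87 FPKM, a difference of -2.02. Another complex I subunit, Ndufs7, was at 20.2, 14.1, 13.8 and 6.91 FPKM, a difference of -1.95 (-1.43 as measured, with a model of 6048 bases). The cytochrome oxidase subunit Cox5b was at 99.7, 51.8, 55.7 and 19.7 FPKM. In all 3 genes NL-SFMA was the lowest library and SFMA the highest. Small subunits of ATP synthase, the enzyme that makes ATP from the proton gradient, were lower as well. Atp5f1e was at 735, 433, 374 and 161 FPKM, a difference of -1.57, and Atp5me at 252, 109, 118 and 47.7 FPKM, a difference of -1.69. The catalytic beta subunit Atp5f1b, which is among the most abundant of the list, was near the median of all genes at 1078 FPKM in SFMA and 815 in NL-SFMA, a difference of 0.22 (-0.40 as measured). Ndufa1 was the single member past 1.5-fold higher, at a low level (1.89 FPKM in SFMA and 2.78 in NL-SFMA).

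Genes for bringing proteins into the mitochondrion were lower to a like degree. Of 23 members, 13 were 1.5-fold lower and 1 higher, with a median of -0.65. Tomm7, a small subunit of the outer membrane translocase, was at 41.4, 16.2, 14.3 and 2.30 FPKM and 18.03-fold lower (13.3 to 25.1), the lowest difference of the list (-2.90). Timm13 and Timm10, chaperones of the intermembrane space, were at 219, 142, 129.5 and 25.9 FPKM and 31.9, 22.7, 22.6 and 4.16 FPKM. For both, N-SFMA and L-SFMA were near SFMA after length removal (-0.12 and -0.08 for Timm13, -0.01 and 0.12 for Timm10), while NL-SFMA differed by -2.12 and -1.73. The receptor Tomm22 (-1.36) and the co-chaperone Grpel1 (-0.998) were lower, and the channel Tomm40 was at -0.52. Uqcc2, an assembly factor of complex III, was at 108, 71.99, 47.6 and 9.05 FPKM. After length removal N-SFMA was near SFMA (-0.05), L-SFMA was lower (-0.41) and NL-SFMA was at -2.62.

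Mitochondrial ribosomal proteins, which translate the mitochondrial transcripts, had 26 of 73 members 1.5-fold lower and 2 higher, with a median of -0.41. Mrps26 was at 51.9, 36.1, 36.9 and 6.47 FPKM, a difference of -1.94, and Mrpl54 at 59.6, 34.8, 32.99 and 8.57 FPKM, a difference of -1.72. Mrps10 went the other way (30.5 FPKM in SFMA and 39.6 in NL-SFMA, a difference of 1.06). Genes that keep and transcribe mitochondrial DNA had a median of 0.16 (-0.11 as measured), with 4 of 23 members 1.5-fold higher and 5 lower. Fastkd2, which binds mitochondrial RNA, was at 5.07, 4.89, 5.36 and 10.6 FPKM, a difference of 1.33. The transcription factor Tfb2m was at 0.94 and Lrpprc, which stabilises mitochondrial messages, at 0.86. The DNA-packaging factor Tfam was at 43.9 FPKM in SFMA and 29.96 in NL-SFMA, a difference of 0.19 (-0.54 as measured).

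**Figure D4:**
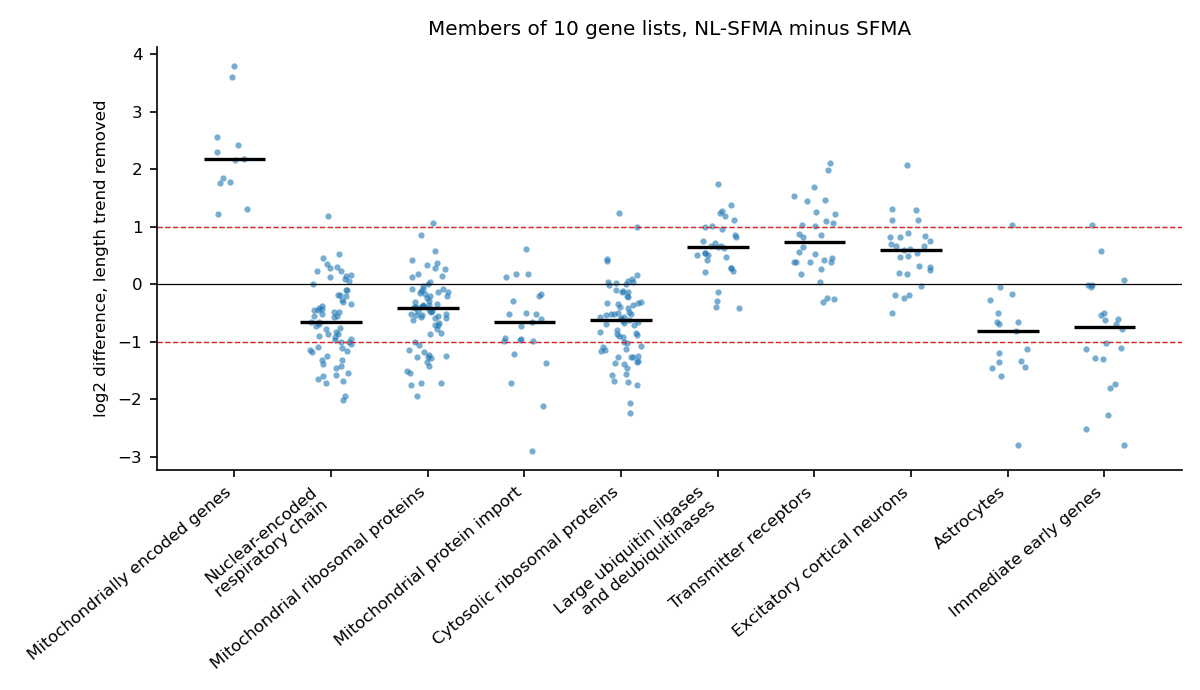
Difference between NL-SFMA and SFMA (log2, length trend removed) of every compared member of 10 gene lists, 1 point a gene, with the list median as a bar and dashed lines at 2-fold. All points of the mitochondrially encoded list lie above 1, while those of the nuclear respiratory chain, mitochondrial ribosome and import lists lie mostly below 0.

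Promoters of Tomm7 and Uqcc2 are shown because both were among the 15 most lowered genes and hold a match to the binding motif of NRF1, a factor known for driving nuclear genes of the mitochondrion. The motif searched was GCGCNTGCGC on both strands, so a match on the other strand reads GCGCANGCGC. The 300 bases run from 250 before to 50 after the transcription start in RefSeq's rat annotation (GRCr8), 5′ to 3′ on the gene's strand, with the match in capitals. Tomm7 lies at chr4:12197253-12197552 on the plus strand and Uqcc2 at chr20:5216334-5216633 on the minus strand.
Tomm7: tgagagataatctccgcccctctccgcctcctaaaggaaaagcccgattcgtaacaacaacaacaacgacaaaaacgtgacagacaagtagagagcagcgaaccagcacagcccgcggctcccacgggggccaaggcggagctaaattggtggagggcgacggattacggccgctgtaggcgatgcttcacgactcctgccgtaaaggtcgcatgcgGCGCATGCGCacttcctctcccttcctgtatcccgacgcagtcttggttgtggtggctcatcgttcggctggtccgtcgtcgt
Uqcc2: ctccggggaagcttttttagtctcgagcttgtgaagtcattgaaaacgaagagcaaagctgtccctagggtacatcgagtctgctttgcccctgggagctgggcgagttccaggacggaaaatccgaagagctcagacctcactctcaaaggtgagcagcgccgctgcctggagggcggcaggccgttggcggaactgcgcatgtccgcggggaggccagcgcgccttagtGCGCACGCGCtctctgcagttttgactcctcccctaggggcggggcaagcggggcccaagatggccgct
The motif was found in 4.25% of all 33469 promoter windows of the table and in 11.0% of those matched to compared genes. It was found in 20.97% of the 62 matched respiratory chain genes, 21.7% of the 23 import genes, 16.9% of the 59 mitochondrial ribosomal genes, 11.3% of the 691 matched genes that were 2-fold lower and 7.76% of the 490 that were 2-fold higher. A match describes the letters in the window and not a bound site.

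Lower levels extended to the cytosolic ribosome. Of 71 ribosomal protein genes, 38 were 1.5-fold lower and 2 higher, with a median of -0.63 (-1.30 as measured, -0.35 on N-SFMA and -0.58 on L-SFMA after length removal). Their share of the reads was 5.34% for SFMA and 2.26% for NL-SFMA, with N-SFMA (3.48%) and L-SFMA (2.79%) between, so SFMA was highest and NL-SFMA lowest. Rps28 was at 354, 129.6, 122 and 41.8 FPKM, a difference of -2.24. Rpl35a was at 62.9, 25.8, 26.2 and 9.55 FPKM, a difference of -2.06. The members with the highest levels differed less: the stalk protein Rplp0 was at 2489, 1569, 1261 and 1146 FPKM (-0.31) and Rpl27 at 1809, 1075, 849.6 and 736 FPKM (-0.41). Rpl9 was above SFMA (1.24, but 0.30 as measured) at a low level, 12.5 FPKM in SFMA and 15.5 in NL-SFMA. Many ribosomal protein genes have processed pseudogenes that can take their reads, so values of single members are uncertain.

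Initiation and elongation factors of translation had no common direction, with a median of -0.03 and 11 of 45 members 1.5-fold higher beside 7 lower. A pair of repressors that hold back the cap-binding protein went opposite ways. Eif4ebp1 was at 35.6, 15.2, 15.9 and 6.66 FPKM, a difference of -1.87, with NL-SFMA the lowest library. Eif4ebp2 was at 52.8, 78.8, 75.2 and 129 FPKM, a difference of 1.58, with NL-SFMA the highest. The initiation factor subunit Eif3g was lower (-1.33), while the poly(A)-binding Pabpc1 (0.89) and the release factor Etf1 (0.97, but 0.40 as measured) were higher. The abundant Eef2 was at 1216, 1386, 1128 and 1170.2 FPKM.

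Small components of the spliceosome were lower in the same manner. Of 29 Sm, LSm and related core proteins, 13 were 1.5-fold lower and 1 higher (median -0.52, beside -0.44 on N-SFMA and -0.49 on L-SFMA). Lsm4 was at 119, 66.6, 66.01 and 15.9 FPKM, a difference of -1.90. Snrpf was at 108, 48.2, 49.1 and 18.9 FPKM, a difference of -1.51. The imprinted neuronal member Snrpn was near the median (-0.03). Regulatory splicing factors and RNA-binding proteins split instead, with 10 of 62 higher and 15 lower. The highest of the named members were neuronal RNA-binding genes: Celf2 at 56.9, 95.4, 114 and 180.0 FPKM (1.19), Elavl3 at 51.7, 62.5, 90.1 and 96.3 FPKM (1.29), Elavl2 at 1.08 and Nova1 at 1.03. The broadly expressed SR proteins Srsf9 (10.5, 4.22, 5.59 and 1.75 FPKM, -2.38) and Srsf4 (-1.74), as well as Hnrnpf (-1.55) and U2af2 (-1.47), were lower. The model of Srsf4 in the table is 18635 bases long, so its value rests on the steep end of the length curve, and it was -0.41 as measured.

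RNA polymerase II and the Mediator that links it to regulators were taken as 1 list. It had 16 of 48 members 1.5-fold lower and 4 higher (median -0.20). The largest lower differences were of polymerase subunits, Polr2e (146, 92.8, 87.7 and 29.1 FPKM, -1.51), Polr2j (-1.20), Polr2f (-1.15) and Polr2c (-1.02). The largest higher differences were of Mediator subunits, Med14 (5.85, 12.7, 12.4 and 26.6 FPKM, 1.52) and Med13 (3.604, 6.72, 10.2 and 17.3 FPKM, 1.26), whose levels in N-SFMA and L-SFMA lay between those in SFMA and NL-SFMA.

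Enzymes that attach or remove ubiquitin were among the lists above SFMA. Of 31 large ubiquitin ligases and deubiquitinases, 17 were 1.5-fold higher and 0 lower, with a median of 0.64 (1.31 as measured, at a median model length of 9025 bases). Rlim, a ligase of nuclear factors, was at 14.02, 20.7, 25.2 and 35.1 FPKM, a difference of 1.74. The deubiquitinase Usp9x was at 8.77, 21.99, 26.6 and 51.6 FPKM, a difference of 1.38. Ube3a, the ligase lost in Angelman syndrome, was at 5.81, 9.79, 11.7 and 25.5 FPKM, a difference of 1.28. Usp34 (1.23), Birc6 (1.18) and the cullin Cul5 (1.11) were also 2-fold higher, whereas Nedd4 was at -0.41 (0.70 as measured). For the genes given with 4 levels, NL-SFMA was the highest and SFMA the lowest library.

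The proteasome, which degrades what these enzymes mark, was not higher. Its 35 compared subunits had a median of -0.26, with 5 members 1.5-fold lower and 4 higher. The core subunit Psmb3 was at -1.03 and the lid deubiquitinase Psmd14 at 88.2 FPKM in SFMA and 110.3 in NL-SFMA (1.04). Folding machines for new tubulin and actin held some of the lowest differences. Prefoldin Pfdn2 was at 13.3, 8.58, 8.22 and 2.44 FPKM and 5.43-fold lower (4.77 to 6.20), Pfdn6 at 11.2, 4.52, 8.74 and 0.720 FPKM (-1.91), and the tubulin cofactors Tbcc (-1.15) and Tbca (-1.11) were 2-fold lower. The chaperonin that receives the cargo of prefoldin was close to SFMA, with Cct2 at 319, 296, 243 and 305 FPKM (0.46 (-0.07 as measured)) and Cct3 at 0.23 (-0.01 as measured). The list as a whole had 6 of 18 members lower and 1 higher. The Pfdn2 model in the table has 7739 bases, and whether that is the length of the RNA in these cells was not tested.

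Stress chaperones were near SFMA, with a heat shock list median of 0.10 (-0.01 as measured) and 3 of 21 members higher beside 2 lower. The abundant Hspa8 was at 982, 1034, 817 and 1111 FPKM (0.49) and Hsp90aa1 at 544, 464, 426 and 548 FPKM (0.26). Unfolded protein response genes had a median of 0.32, with 9 of 28 members 1.5-fold higher and 2 lower. The endoplasmic reticulum sensor Atf6 was at 7.39, 13.3, 13.9 and 23.3 FPKM (1.04), the calcium-binding chaperone Canx at 92.9, 113, 119 and 184 FPKM (0.93) and the Reelin receptor Vldlr at 1.18. Herpud1 was lower (-1.18, but -0.52 as measured), as was the serine synthesis enzyme Phgdh (-0.87).

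Chromatin remodellers and histone-modifying enzymes had 14 of 63 members 1.5-fold higher and 1 lower, a share of higher members close to that of all genes (19.3%). Their median was 0.30, beside 0.23 on N-SFMA and 0.30 on L-SFMA. As measured the median was 0.92, at a median model length of 7007 bases. The deacetylase Hdac2 was at 172, 209.8, 195 and 269 FPKM (1.07). The remodeller Atrx was at 6.31, 13.2, 15.8 and 28.1 FPKM (1.05), and the histone methylation genes Kmt2e (1.04) and Nsd1 (1.01) were also 2-fold higher. Histone genes were lower, with 10 of 17 members 1.5-fold lower and 0 higher (median -0.65). The linker histone H1f10 was at 611, 411, 381 and 148 FPKM (-1.11) and H2aj at 119.8, 78.1, 69.6 and 16.3 FPKM (-1.97). In both, N-SFMA and L-SFMA were near SFMA after length removal (-0.08 and -0.02 for H1f10, -0.09 and -0.04 for H2aj). The variant H3f3a was at 0.21 (-0.49 as measured). Replication-dependent histone messages lack a poly(A) tail, and these libraries were made from poly(A) RNA, so the list speaks mainly of histones with a tail.

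Receptors for transmitters were the highest of the neuronal lists. Of 30 compared members, 16 were 1.5-fold higher and 0 lower, and 12 were past 2-fold, with a median of 0.73 (0.30 on N-SFMA and 0.20 on L-SFMA). GABA-A receptor subunits led. Gabrb2 was at 1.37, 2.70, 3.29 and 7.98 FPKM, a difference of 2.11. Gabra2 was at 8.25, 12.2, 14.1 and 25.9 FPKM, a difference of 1.98. Gabra3 was at 6.34, 5.65, 4.78 and 12.1 FPKM, where N-SFMA and L-SFMA were near SFMA (0.11 and -0.10) while NL-SFMA differed by 1.46. The nicotinic subunit Chrnb2 was at 14.1, 23.9, 24.1 and 31.1 FPKM (1.53), and the NMDA receptor subunit Grin2b at 0.671, 1.72, 2.77 and 5.05 FPKM (1.45). Receptor genes with the highest levels in SFMA stayed closer to it: Gabbr1 at 70.7, 97.02, 93.4 and 93.98 FPKM (0.04) and the kainate subunit Grik5 at 38.7, 32.96, 44.5 and 34.7 FPKM (-0.26).

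Voltage-gated channels and vesicle release genes were mixed. The channel list had a median of 0.09 with 9 of 39 higher and 2 lower. Its largest difference was Cacna2d1, a calcium channel subunit, at 3.599, 7.07, 9.61 and 16.2 FPKM (1.79), followed by Cacng2, an auxiliary subunit of AMPA receptors (1.63), and the potassium channel Kcnq3 (1.27). Genes of vesicle release and synaptic scaffolds had 18 of 61 higher and 7 lower (median 0.22). The calcium sensors Syt4 at 113, 194, 177 and 301 FPKM (1.95) and Syt1 at 7.03, 14.05, 13.3 and 18.1 FPKM (1.83) were higher, and all 3 modified hydrogels exceeded SFMA. Other genes of vesicle release were lower on NL-SFMA: Syp at 103, 112, 100.2 and 42.7 FPKM (-0.96), the SNARE Stx1a at 27.3, 26.1, 26.6 and 9.93 FPKM (-1.07) and Rab3a at 124, 134, 117 and 58.7 FPKM (-0.48). For Stx1a, Syp and Rab3a the values of N-SFMA and L-SFMA were at or above SFMA after length removal, from 0.04 and 0.02 for Stx1a to 0.34 and 0.14 for Rab3a.

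Transcription factors and markers of excitatory cortical neurons were higher. Of 28 members, 15 were 1.5-fold higher and 0 lower (median 0.60). In bulk RNA a larger share of such neurons and more RNA per neuron cannot be told apart. Mef2c, a factor of maturing neurons, was at 8.48, 19.3, 17.1 and 37.3 FPKM (2.07). Myt1l, which represses non-neuronal genes, was at 7.07, 13.5, 19.8 and 24.3 FPKM (1.31). Nfib was at 18.8, 31.4, 39.1 and 63.1 FPKM (1.30), Zeb2 at 19.2, 33.6, 36.5 and 60.8 FPKM (1.12) and Neurod1 at 31.9, 46.1, 45.7 and 60.99 FPKM (1.12). The most abundant members, Neurod6 (0.59) and Neurod2 (0.17 (-0.15 as measured)), were nearer to SFMA. Interneuron genes had no common direction, with 6 of 29 higher, 6 lower and a median of -0.06. The neuropeptide Sst was at 204, 109.6, 82.3 and 34.5 FPKM (-1.59), and the interneuron factor Dlx1 (-0.62) was lower, while Maf (1.12), Sox6 (1.07) and the neuregulin receptor Erbb4 (1.25) were higher.

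Adhesion genes, the subject of the series, differed by family. Classical cadherins and catenins had a median of 0.15, with 3 of 22 members 1.5-fold higher and 3 lower, below the shares of all genes. The neuronal cadherin Cdh2 was at 63.2, 83.7, 97.3 and 154 FPKM, with the lowest level in SFMA and the highest in NL-SFMA, and had a difference of 1.04. Its cytoplasmic partner Ctnnb1 was at 253, 259, 263 and 322 FPKM, a difference of 0.31. The type II cadherin Cdh8 was at 5.32, 9.60, 9.75 and 14.6 FPKM (1.25), and the neuronal catenin Ctnna2 at 0.51, whereas the epithelial-type Ctnna1 was at -0.50 and Nectin2 was lower at 18.3, 14.02, 15.9 and 7.83 FPKM (-1.12). Giant cadherins and protocadherins had 5 of 17 higher, 0 lower and a median of 0.39, which was 0.05 among members with at least 5 FPKM. Fat4 was at 2.57, 6.17, 11.6 and 14.6 FPKM, a difference of 0.88 after length removal and 2.12 before.

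Immunoglobulin-type adhesion molecules held large differences in both directions, with 10 of 26 higher, 6 lower and a median of 0.42. That median was 0.34 on N-SFMA and 0.34 on L-SFMA. Members of the GPI-anchored IgLON family were highest: Negr1 was at 9.48, 19.02, 18.3 and 27.9 FPKM (1.95) and Opcml at 7.77, 12.2, 12.8 and 29.4 FPKM (1.70). Cadm2 (6.91, 9.72, 13.1 and 20.8 FPKM, 1.54), the L1 family member Chl1 (9.36, 14.9, 21.3 and 37.2 FPKM, 1.39) and Alcam (1.15) followed. Ncam1 was at 33.8, 64.1, 79.5 and 105 FPKM (0.81) and L1cam at 20.97, 40.9, 51.2 and 47.4 FPKM (0.66), both higher in all 3 modified hydrogels than in SFMA. Lower members were Igsf8 at 63.3, 54.4, 63.3 and 21.7 FPKM (-1.53), basigin (Bsg) at 265, 185, 177 and 80.7 FPKM (-1.12) and Cadm4 at 261, 286, 305 and 119.5 FPKM (-0.63). Within the Cadm family, Cadm2, Cadm3 (0.16) and Cadm4 thus took separate positions.

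For attachment to matrix, 0 of 25 integrin and focal adhesion genes were 1.5-fold higher and 6 lower after length removal. Their median was -0.26 (-0.16 on N-SFMA and -0.24 on L-SFMA). As measured, 4 were higher and 2 lower, with a median of 0.07, at a median model length of 4892 bases. The focal adhesion scaffolds Tns2 (-1.31), Pxn (-1.13) and Zyx (37.1, 22.5, 23.9 and 16.2 FPKM, -0.95) were lower. Across the processing settings tried, Tns2 ran from -1.59 to -0.22 and Pxn from -1.32 to -0.53. The talin Tln1 was at -0.64 (0.15 as measured). Matrix genes had 9 of 30 members lower and 3 higher (median -0.25) after length removal. As measured, 6 were lower and 9 higher (median 0.07), so the balance of both lists depends on the length removal. Sparcl1 was at 12.9, 4.33, 5.73 and 3.12 FPKM (-1.60), and the glial matrix protein Tnc at 8.83, 3.85, 9.63 and 6.22 FPKM (-1.13). Vcan, a proteoglycan with one of the longest models of the list, was at 2.30, 5.47, 7.58 and 14.1 FPKM (1.14).

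Axon guidance receptors held more higher than lower members. Of 38 genes for Ephs, ephrins, Slits, Robos, netrin receptors and their effectors, 12 were 1.5-fold higher and 4 lower. Their median was 0.15, below those of 0.33 on N-SFMA and 0.26 on L-SFMA. The netrin receptor Dcc was at 5.06, 10.9, 12.2 and 20.2 FPKM (1.38), and Epha3 at 13.7, 25.2, 29.3 and 35.8 FPKM (1.38). Srgap3 (1.31), the ligand Efnb2 (1.25), Epha5 (1.22) and Srgap1 (1.15) were also past 2-fold. Collapsin response mediators, which carry guidance signals to microtubules, split, with Dpysl3 at 304, 488, 468 and 541 FPKM (0.91) and the abundant Crmp1 (-0.05) and Dpysl5 (0.07) near 0. Among semaphorins and their receptors 4 of 26 were higher and 2 lower, both below the shares of all genes, with a median of 0.18. The secreted Sema3c was at 28.4, 57.6, 70.6 and 113 FPKM (1.59) and its receptor Nrp1 at 9.15, 18.6, 28.5 and 32.9 FPKM (1.38), with Plxna2 (1.20) and Plxna4 (1.09) past 2-fold. In these 4 genes SFMA was the lowest library and NL-SFMA the highest.

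Cytoskeletal genes held large differences in both directions. The microtubule-associated Map1b was at 55.4, 164, 183 and 322 FPKM (1.41), Map2, which marks dendrites, at 24.7, 56.5, 61.1 and 97.97 FPKM (1.19), and Dcx of young migrating neurons at 68.3, 140.4, 161 and 266 FPKM (1.14). The list of tubulins and neuronal microtubule proteins had a median of 0.14, with 6 of 33 higher and 4 lower. Tubulin genes ranged widely, from Tubb6 at 23.8, 7.23, 6.34 and 4.87 FPKM (-1.99) to Tubb2b at 23.5, 25.9, 15.8 and 52.5 FPKM (1.87). Tubb3 had a difference of 0.46 (-0.18 as measured), and the growth cone gene Gap43, at 83.7, 86.7, 70.7 and 79.7 FPKM, one of 0.66 (-0.07 as measured), so the sign of both depends on the length removal. The dynein heavy chain Dync1h1 was at 23.4, 70.3, 73.2 and 122 FPKM (1.17), while its light chain Dynlrb1 was at 79.7, 58.7, 47.1 and 29.6 FPKM (-1.74). Kinesin light chain Klc1 (-1.29) and Kif1c (-1.37) were lower. Across the processing settings tried, Klc1 ran from -1.47 to -0.49. The motor list had 8 of 36 higher and 10 lower.

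Actin regulators had 13 of 46 members 1.5-fold lower and 6 higher. The monomer-binding thymosin Tmsb10 was at 1543, 1179, 1024 and 233 FPKM (-1.999), and the filament-severing cofilin Cfl1 at 907, 659.7, 557 and 244 FPKM (-1.71). The myosin light chain Myl6 was at 188, 97.5, 92.7 and 27.9 FPKM (-2.23). Its heavy chain partner Myh9 was at -1.39, and from -1.66 to -0.53 across the processing settings tried. Vasp (-1.72) and the Arp2/3 subunit Arpc1b (-1.57) were lower too. Actin itself was within 1.5-fold of SFMA, with Actb at 4118, 4266, 3390.3 and 3952 FPKM, a difference of 0.48 (-0.06 as measured). Of the growth cone and membrane skeleton proteins, Marcksl1 was at 398, 342, 401 and 99.5 FPKM (-1.43), where only NL-SFMA was far from SFMA. The membrane scaffolds Ank2 (0.93), Sptbn1 (0.81) and Ank3 (0.73) were past 1.5-fold higher and the neurofilament Nefl at 7.61, 10.7, 10.4 and 11.6 FPKM (1.07).

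Markers of glia and progenitors were lower. Of 17 astrocyte genes 12 were 1.5-fold lower and 1 higher, with a median of -0.82, the lowest of all lists. The astrocyte median was -0.76 on N-SFMA and -0.32 on L-SFMA. The thyroid hormone and organic anion transporter Slco1c1 was at 13.01, 0.381, 0.428 and 0.727 FPKM and 17.9-fold lower (12.3 to 27.2), with all 3 modified hydrogels under 1 FPKM. The lipid carrier Apoe was at 12.8, 8.43, 17.7 and 2.86 FPKM (-1.35), lower on NL-SFMA than in any other library. The cysteine protease inhibitor Cst3 was at 86.6, 47.9, 35.97 and 31.01 FPKM (-1.34). The glutamate transporter Slc1a3, shared by astrocytes and radial glia, was at 22.1, 6.39, 8.23 and 10.6 FPKM (-1.44), and its relative Slc1a2 went the other way (1.91 FPKM in SFMA and 4.05 in NL-SFMA, 1.02).

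Radial glia and intermediate progenitor genes had 16 of 33 members 1.5-fold lower and 2 higher, with a median of -0.31 (-0.50 on N-SFMA and -0.33 on L-SFMA). The neural progenitor factor Sox3 was at 74.4, 10.9, 17.2 and 6.12 FPKM and 12.2-fold lower (10.1 to 14.8). Dbi, which binds acyl-CoA, was at 39.7, 13.6, 13.1 and 5.10 FPKM (-2.63). The lipid carrier Fabp7 was at 264, 46.7, 58.9 and 41.6 FPKM (-1.80). Intermediate filament Vim was at 1088, 535, 486 and 633 FPKM, a difference of -0.14. The endothelin receptor Ednrb was higher (1.21). Musashi (Msi1), an RNA-binding protein of neural stem cells outside this list, was at 37.8, 29.1, 36.8 and 13.8 FPKM, with NL-SFMA the lowest library. Its difference was -2.22, against -0.77 on N-SFMA and -0.68 on L-SFMA.

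Other cell types were represented by few genes. Oligodendrocyte lineage genes had 4 of 8 compared members lower and 1 higher, led by Olig2 at 3.23, 1.62, 1.79 and 0.465 FPKM (-1.80) and Olig1 at 7.07, 2.21, 2.31 and 1.68 FPKM (-1.12). The list median was -0.48, beside -0.47 on N-SFMA and -0.45 on L-SFMA. Microglia and macrophage genes had 7 of 11 lower and 1 higher (median -0.61, beside -0.62 on N-SFMA and -0.39 on L-SFMA). Lysozyme (Lyz2) was at 26.6, 7.87, 14.3 and 4.85 FPKM (-1.67) and the adaptor Tyrobp at 15.7, 4.29, 10.3 and 3.20 FPKM (-1.09), while C1qa, C1qc and Trem2, noticed after their values were seen, were listed at 0 in NL-SFMA and under 1 FPKM in SFMA. Erythroid genes were below 0 in 12 of 12 members, 7 of them 1.5-fold lower (median -0.72, beside -0.70 on N-SFMA and -0.94 on L-SFMA). Alpha globin Hba-a1 was at 494, 147, 82.7 and 59.6 FPKM and 8.29-fold lower (7.95 to 8.64), though reads of its near-identical copies can be exchanged. Embryonic Hbe1 was at 21.4, 2.30, 0.890 and 2.05 FPKM (-1.94). The summed level of the 19 erythroid genes found was 681, 289, 204 and 161 FPKM.

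Growth factors and cytokines were lower in 10 of 19 members and higher in 3. The heparin-binding growth factor midkine (Mdk) was at 837, 357, 416 and 97.7 FPKM, a difference of -2.14, and its relative pleiotrophin (Ptn) at 152, 73.7, 78.9 and 58.6 FPKM (-0.72). Cxcl14 (14.5, 6.04, 7.29 and 2.01 FPKM, -1.52) and Mif (414, 221, 218 and 109 FPKM, -0.99) were also lowest on NL-SFMA. Ccl2 and Il18 were above SFMA but under 1.5 FPKM.

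Immediate early genes, which neurons and glia switch on within minutes of stimulation, were lower in 14 of 22 members and higher in 1 (median -0.74; -0.54 on N-SFMA and -0.47 on L-SFMA). Nr4a1 was at 7.89, 0.511, 0.620 and 0.0795 FPKM and 99.3-fold lower (33.7 to 484). Fos was at 15.7, 0.816, 1.62 and 0.799 FPKM and 19.6-fold lower (12.3 to 33.4). Jun was at 37.4, 17.8, 29.7 and 12.3 FPKM (-1.80), Ier2 at 15.2, 8.30, 9.81 and 3.31 FPKM (-2.28) and Atf3 at 5.68, 2.22, 2.10 and 0.820 FPKM (-1.29). Fos and Nr4a1 were under 2 FPKM in all 3 modified hydrogels, and Fos, Nr4a1, Ier2 and Jun were all lowest on NL-SFMA, for Fos by little against N-SFMA. For Nr4a1 the counts were 15.4-fold lower on N-SFMA (9.95 to 25.3) and 12.7-fold lower on L-SFMA (8.60 to 19.6), and neither interval overlaps that of NL-SFMA, which rests on 3 counts. Homer1 was the exception (4.89, 6.97, 8.40 and 14.7 FPKM, 1.03).

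Of the FGF and ERK list, the lowest members with at least 5 FPKM were genes that the pathway itself induces. Etv4, a transcription factor induced by FGF, was at 13.5, 0.455, 0.836 and 0.651 FPKM and 20.8-fold lower (13.9 to 32.3). Spry4, an inhibitor of the pathway, was at 7.64, 0.191, 0.602 and 0.541 FPKM and 14.1-fold lower (10.2 to 20.03). Etv5 was at 33.02, 6.17, 8.40 and 7.68 FPKM (-2.11), Spry2 at 15.4, 7.07, 7.55 and 5.46 FPKM (-1.36) and the receptor Fgfr3 at 17.04, 10.6, 16.7 and 8.13 FPKM (-1.20). In Etv4 and Spry4 the level in N-SFMA was lower than in NL-SFMA. The kinase Map2k2 had a difference of -0.70, while the Ras inhibitor Nf1 was higher at 2.55, 6.53, 7.71 and 17.4 FPKM (1.52). The list had 11 of 27 members lower and 7 higher.

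Notch and BMP genes held differences both ways. In the Notch list 8 of 27 genes were lower and 2 higher: the glycosyltransferase Lfng was at 23.9, 5.79, 8.63 and 3.83 FPKM (-2.02), the feedback inhibitor Nrarp at -1.19, and Hes6 at 308, 219, 246 and 79.02 FPKM (-1.19). In the BMP list the target genes Id1 (84.4, 32.5, 40.95 and 17.02 FPKM, -1.32) and Id3 (178, 76.02, 107 and 33.2 FPKM, -1.47) and the ligand Bmp7 (-1.45) were lower. The receptors Acvr2a (8.22, 15.7, 18.7 and 27.3 FPKM, 1.98), Bmpr2 (1.40) and Bmpr1a (1.35) were higher, and Id2 was at -0.08. That list had 6 of 23 genes higher and 4 lower.

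Wnt genes had 7 of 32 higher and 9 lower. The receptor Fzd3, needed for axon tracts, was at 9.80, 12.2, 16.2 and 31.2 FPKM (1.72), while Fzd8 (-0.96) and Fzd2 (-0.91) were lower. The scaffold Apc was at 12.4, 27.4, 30.6 and 50.3 FPKM (1.08). The kinase pair of this pathway diverged, Gsk3b at 23.6, 32.3, 42.4 and 53.1 FPKM (1.44) and Gsk3a at 66.1, 58.3, 58.8 and 34.5 FPKM (-0.46). In the Hippo list Taok1 (4.73, 7.97, 13.6 and 19.9 FPKM, 1.74) and Mob1b (1.49) were higher and Tead2 (-0.95) lower. It had 4 of 22 higher and 6 lower.

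Kinases of insulin, neurotrophin and mTOR signalling were more often higher than lower, with 11 of 25 members 1.5-fold higher and 3 lower (median 0.50). Pdpk1, which activates Akt, was at 10.2, 14.8, 15.9 and 21.5 FPKM (1.58). Receptors followed, with Igf1r at 4.87, 8.40, 12.1 and 14.5 FPKM (1.10) and Insr at 3.76, 6.53, 8.98 and 11.1 FPKM (0.91). The kinase Akt1 was at 155, 146, 141 and 91.05 FPKM (-0.76) and Akt2 at 49.1, 54.1, 57.6 and 45.6 FPKM (0.22 (-0.10 as measured)).

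Proliferation genes were lower as lists. For DNA replication 17 of 47 members were 1.5-fold lower and 2 higher (median -0.44; -0.41 on N-SFMA and -0.49 on L-SFMA). Thymidine kinase Tk1 was at 41.3, 15.98, 15.6 and 11.8 FPKM (-1.56), the flap nuclease Fen1 at 31.6, 21.2, 20.9 and 9.53 FPKM (-1.46) and Uhrf1, which copies DNA methylation, at 35.3, 18.4, 20.5 and 13.8 FPKM (-1.41). The sliding clamp Pcna was at 222, 124, 111 and 105 FPKM (-0.34). For mitosis 19 of 55 were lower and 2 higher (median -0.37), with survivin (Birc5) at 17.3, 8.51, 8.98 and 1.83 FPKM (-2.16) and the kinase Cdk1 at 67.7, 31.6, 33.04 and 21.5 FPKM (-0.84). The list medians of N-SFMA and L-SFMA for mitosis were -0.53 and -0.48, lower than that of NL-SFMA.

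Genes of intrinsic apoptosis and DNA damage responses had 14 of 28 members lower and 5 higher. The death-promoting genes were lowest on NL-SFMA: Bbc3 (PUMA) was at 28.02, 15.04, 24.4 and 3.88 FPKM (-2.01) and Bax at 81.96, 58.2, 60.7 and 15.8 FPKM (-1.76). Gadd45g was at 50.6, 32.1, 42.98 and 6.71 FPKM (-1.90) and Phlda3, a brake on Akt, at 21.5, 6.08, 8.09 and 2.58 FPKM (-1.95). Mdm4 was at 7.05, 8.58, 13.8 and 18.4 FPKM (1.82) and the survival gene Mcl1 at 52.6, 68.3, 70.01 and 77.8 FPKM (1.04).

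Antioxidant and metal-binding genes were lower in 15 of 32 members and higher in 2 (median -0.52). Metallothioneins, small proteins that bind zinc and copper, were lower together. Mt3, a brain metallothionein, was at 280.3, 36.1, 36.7 and 23.5 FPKM and 11.9-fold lower (9.94 to 14.4). Mt2A was at 126, 18.9, 19.4 and 20.9 FPKM (-1.70). Mt1, chosen for its family after its values were seen, was at 22.5, 6.65, 8.79 and 5.07 FPKM (-1.11). All 3 modified hydrogels were far below SFMA for Mt3 and Mt2A, and reads of these close paralogs can be exchanged. The superoxide dismutases Sod1 (138, 74.7, 64.1 and 39.2 FPKM, -1.18) and Sod2 (24.1, 19.9, 19.3 and 10.1 FPKM, -1.30) and the peroxiredoxin Prdx5 (-1.66) were lower. Ferritin light chain Ftl1 was at 838, 641, 565 and 264 FPKM (-1.32), and the heavy chain Fth1 at 1547, 1019, 871 and 761 FPKM, where the difference was -1.02 as measured and -0.11 after length removal. Gclm, a subunit for glutathione synthesis, was at 17.3 FPKM in SFMA and 21.7 in NL-SFMA. Its difference was 1.05 after length removal and 0.32 as measured.

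Promoters of the 3 metallothioneins are shown because these genes lie in 1 cluster and were lower together. The window is again 250 bases before to 50 after the RefSeq start (GRCr8), 5′ to 3′ on the gene's strand. Capitals mark matches to the core of the metal response element, searched as TGCACNC and TGCGCNC on both strands, so a match on the other strand reads GNGTGCA or GNGCGCA. Mt1 lies at chr19:10832926-10833225, Mt2A at chr19:10838659-10838958 and Mt3 at chr19:10856031-10856330, all on the minus strand.
Mt1: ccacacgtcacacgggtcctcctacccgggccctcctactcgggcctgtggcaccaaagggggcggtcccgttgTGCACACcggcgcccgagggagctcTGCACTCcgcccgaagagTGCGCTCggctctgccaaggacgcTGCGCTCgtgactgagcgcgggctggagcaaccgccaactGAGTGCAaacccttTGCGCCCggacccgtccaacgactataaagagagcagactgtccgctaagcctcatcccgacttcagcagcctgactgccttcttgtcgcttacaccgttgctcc
Mt2A: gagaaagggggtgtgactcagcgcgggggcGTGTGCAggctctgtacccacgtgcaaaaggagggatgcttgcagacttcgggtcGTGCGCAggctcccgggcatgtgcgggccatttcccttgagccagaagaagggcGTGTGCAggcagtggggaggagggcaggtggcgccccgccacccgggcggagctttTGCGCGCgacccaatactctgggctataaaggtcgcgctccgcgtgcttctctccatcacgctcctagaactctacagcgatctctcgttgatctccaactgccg
Mt3: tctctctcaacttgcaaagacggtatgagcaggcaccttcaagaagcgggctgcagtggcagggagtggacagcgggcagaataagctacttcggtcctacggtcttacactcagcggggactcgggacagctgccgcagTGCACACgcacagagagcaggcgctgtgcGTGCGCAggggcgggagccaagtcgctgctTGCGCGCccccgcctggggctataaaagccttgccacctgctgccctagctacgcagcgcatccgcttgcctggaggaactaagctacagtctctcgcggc
Mt1 held 6 matches, Mt2A 4 and Mt3 3. At least 1 match was found in 24.2% of all promoter windows of the table, in 38.2% of those of compared genes, in 38.4% of those of 2-fold lower genes and in 35.7% of those of 2-fold higher genes, so a single match is common.

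Lipid and energy metabolism outside the mitochondrion differed by pathway. Fatty acid synthesis and elongation genes had 8 of 22 members 1.5-fold higher and 1 lower (median 0.34). The elongases Elovl6 (9.05, 12.3, 15.4 and 24.9 FPKM, 1.69) and Elovl4 (25.2, 30.1, 32.2 and 55.3 FPKM, 1.62) were highest, and the rate-limiting carboxylase Acaca was at 11.9, 25.5, 25.5 and 41.96 FPKM (0.85). Cholesterol synthesis had 3 of 26 higher and 7 lower, with Fdps at 127, 119, 95.8 and 69.7 FPKM (-1.48), Pmvk at 42.9, 34.5, 34.8 and 9.65 FPKM (-1.20) and Sc5d at 43.9, 43.2, 42.96 and 47.5 FPKM (0.76). In glycolysis and the hypoxia response 7 of 29 were lower and 2 higher. The glycolytic enzymes Pfkl (52.3, 52.6, 49.4 and 23.9 FPKM, -0.89) and Pkm (178, 199, 153 and 105 FPKM, -0.82) were lower, whereas Pdk1, which keeps pyruvate out of the mitochondrion, was at 19.7, 21.5, 23.3 and 27.8 FPKM (1.18) and Hif1a at 51.1, 64.6, 63.6 and 102 FPKM (0.91).

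Lysosomal genes had 2 of 47 higher and 7 lower, and vesicle coats and Golgi transport 10 and 10 of 47. Named members on the lower side were Atp6v1g1 of the proton pump (72.1, 54.8, 54.5 and 27.8 FPKM, -1.16), the clathrin light chain Cltb (125, 101, 99.8 and 29.2 FPKM, -1.18) and the coatomer subunit Cope (-1.16). Those on the higher side were the coat protein Sec23a (30.3, 45.2, 36.9 and 69.8 FPKM, 1.01) and the adaptor Ap1g1 (0.84).

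The largest single differences outside the mitochondrial genome were mostly of genes at modest levels. Higher were Frg1l1 (1.61, 2.92, 4.10 and 7.54 FPKM, 2.65) and Plcxd3 (0.545, 2.65, 2.93 and 5.10 FPKM), which was 9.36-fold higher (5.70 to 16.3). Zyg11b, a substrate adaptor of a cullin ligase, was at 13.1, 29.8, 30.4 and 62.8 FPKM and 4.81-fold higher (4.39 to 5.27). St8sia3, a sialyltransferase, was at 9.56, 17.2, 20.6 and 32.3 FPKM (2.40), the G protein subunit Gna13 at 6.70, 9.03, 12.5 and 21.8 FPKM (2.33), and Rnf24 at 10.01, 16.4, 19.7 and 31.7 FPKM (2.51). Prkaa2, a catalytic subunit of the energy sensor AMPK, was at 1.98, 6.15, 7.01 and 12.5 FPKM and 6.29-fold higher (5.12 to 7.79). Csrnp3 (2.23), Lmbrd2 (2.20) and Ghrl (2.51, 3.89, 9.06 and 8.75 FPKM, 2.37) complete the set, and for Ghrl the L-SFMA library was the highest. In the others NL-SFMA was the highest library and SFMA the lowest.

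Lower were Hypk, which binds the amino-terminal acetyltransferase, at 29.8, 14.5, 13.8 and 2.67 FPKM and 11.2-fold lower (9.25 to 13.6), and the coactivator Edf1 at 41.9, 25.7, 23.02 and 5.22 FPKM and 8.02-fold lower (7.11 to 9.07). Nbl1, a BMP antagonist, was at 34.7, 10.8, 10.6 and 3.14 FPKM (-2.58). In N-SFMA and L-SFMA the differences were -0.96 and -1.10 for Hypk and -0.78 and -1.04 for Edf1, against -2.96 and -2.94 in NL-SFMA. In Etv4, Spry4, Slco1c1, Fos and Nr4a1 all 3 modified hydrogels were far below SFMA.

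**Figure D5:**
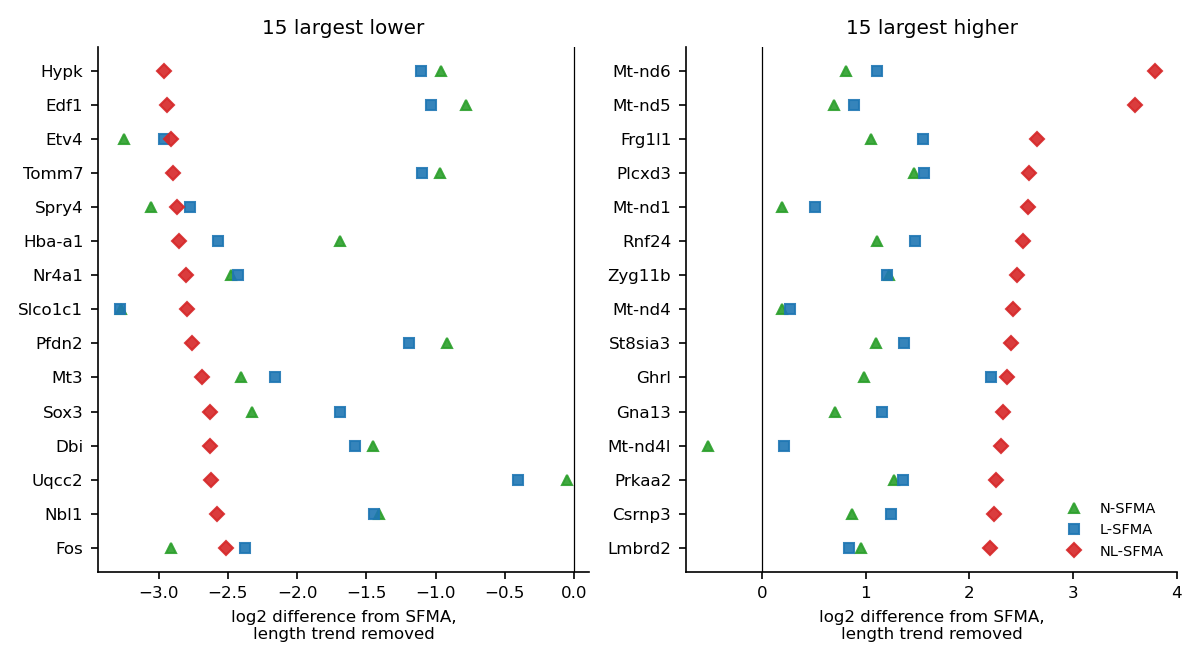
The 15 largest differences from SFMA each way among named genes with at least 5 FPKM in the higher library (log2, length trend removed), for N-SFMA (green triangles), L-SFMA (blue squares) and NL-SFMA (red diamonds), 1 library each. Genes such as Hypk, Edf1, Tomm7 and Mt-nd5 have NL-SFMA far from the other 2 points, while for Etv4, Spry4, Nr4a1 and Slco1c1 all 3 points lie at -2.43 or below. At such low levels the pseudocount of 1 FPKM draws the points together.

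Genes over 8 kb with the largest differences after removal were Nf1, Nexmif (1.31, 4.83, 5.44 and 11.96 FPKM, 1.51) and Map1b on the higher side. On the lower side they were Msi1, Rab11b (58.6, 48.5, 45.99 and 30.2 FPKM, -1.92, but -0.94 as measured) and Srsf4. Between 4 and 8 kb they were Aff2 (1.92, 5.10, 5.73 and 14.2 FPKM, 1.91), Qser1 (5.85, 11.6, 12.9 and 33.8 FPKM, 1.86) and the phosphatase subunit Ppp2r3a (4.87, 10.7, 11.9 and 26.8 FPKM, 1.74) on the higher side and Spry4, Pfdn2 and Srsf9 on the lower side. Under 1 kb the histone gene Hist1h2af was at 17.5, 10.6, 6.70 and 1.08 FPKM (-2.32). The higher genes of both classes had SFMA as the lowest and NL-SFMA as the highest of the 4 libraries.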

How the data were processed

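RNA of cultured rat cortical cells was sequenced in 1 library for each of 4 hydrogels. Each deposited table gives, per gene, a read count, and per the submitters' processing notes HISAT2 and HTSeq 0.13.5 were used. The deposited FPKM equals the count scaled by gene model length and by the library's summed count. Those notes also name the builds mRatBN7.2 and GRCh38 without saying what each was used for. The sources used here do not give strand setting, alignment settings or trimming, so reads of overlapping genes, antisense partners and near-identical copies may be shared between them.

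Summed counts ran from 14172205 to 17553098 a library, and 3 counts, the limit that a count of 0 allows, were worth 0.171 to 0.212 CPM. Gene model lengths were recovered from count and FPKM, and all were whole numbers to within 2.39e-09 bases. For the 12184 genes reaching 1 FPKM in SFMA or NL-SFMA, the difference of log2(FPKM + 1) was taken. Its trend with log2 length was subtracted by lowess (statsmodels 0.14.6, fraction 0.3, 3 robust iterations). The code was checked on simulated counts with a planted linear trend on log2 length and counting noise only. Differences were planted in genes of at least 5 FPKM. Such a check does not cover spread between cultures, wrong model lengths or genes at low levels. Count intervals are exact Clopper-Pearson intervals at 95% (scipy 1.17.1, Python 3.11.15, numpy 2.4.6, pandas 2.3.3).

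A gene was counted as higher or lower past 2-fold, and list members and list medians also past 1.5-fold. The hydrogels were grouped by their titles, and no test was made because there was 1 library a hydrogel. There were 57 gene lists with 2039 symbols, of which 1954 genes were found and 1765 compared. The 2 lists with under 5 compared members are not described as lists. The comparison, its members and the lists were chosen with earlier results of these data known. Genes named were the 15 largest differences each way and the 3 largest each way per length class, among genes with an assigned symbol and at least 5 FPKM in the higher library. In each list they were up to 6 with the largest difference by the same level, the 3 of highest FPKM in SFMA, and members past 2-fold against their list's median. Dcx, Map2, Tubb3, Gap43, L1cam, Ncam1, Cdh2 and Ctnnb1 were added for the subject of the series, and genes outside this rule are marked as such. A few genes that the rule names are not reported here. Promoter windows came from RefSeq (GRCr8), matched by symbol for 9143 of the compared genes and not for 3041, and where a symbol had several windows the first was used. Other pseudocounts, filters, length corrections and scalings, among them TMM from edgeR 4.0.16 in R 4.3.3, were tried as alternatives.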

Additional observations from a re-analysis of the deposited data

How the results depend on the processing

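With a pseudocount of 5 FPKM, 355 genes were 2-fold higher and 473 lower on NL-SFMA, against 1007 and 891 with a pseudocount of 1, and 6 list medians in place of 13 lay past 1.5-fold. A larger pseudocount shrinks differences by its construction. Without removal of the length trend 1872 genes were 2-fold lower, 1251 higher, and 27 list medians lay past 1.5-fold. With genes of at least 5 FPKM alone, 8 list medians did, over fewer genes. Higher genes made up 53.1% of the genes past 2-fold. That share was 42.9% with a pseudocount of 5, 43.0% with no filter (932 higher and 1235 lower) and 40.1% without length removal, and the cause was not tested. Before length removal the median over all genes was −0.11, and it was −0.02 with TMM or median-of-ratios scaling and −0.06 without mitochondrial reads in the total. Among the genes with an assigned symbol, an alternative chosen after seeing the data, 696 were higher and 697 lower. Pearson's r across genes between difference and length ran from 0.41 to 0.58. Of 221 named genes past 2-fold, all kept their sign and 138 stayed past 2-fold in each of the 11 other settings that gave them a value. All 13 list medians past 1.5-fold kept their sign, and 2 stayed past it throughout, those of the mitochondrially encoded and the histone genes. Among all 55 lists, 11 medians took the other sign in at least 1 setting, none of them in a scaling alternative. No paired analysis was possible because there was 1 library a hydrogel, and for the same reason no replicate could be left out.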

Other observations

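Of the compared genes, 12 had no read in SFMA and 20 had none in NL-SFMA. All 12 at 0 in SFMA were among the 2-fold higher genes, with 3 to 17 counts in NL-SFMA, and 1 of them had an assigned symbol, Y_RNA with 3 counts. Of the 20 at 0 in NL-SFMA, with 4 to 75 counts in SFMA, 2 were among the 2-fold lower genes. Given the threshold of 1 FPKM and the pseudocount of 1, every compared gene at 0 in either library is past 2-fold as measured by construction. How many stay past it therefore depends on the length removal and is no finding about these genes. The genes named here were chosen after their values were seen. Syt15, a member of the synaptotagmin family, had 75 counts in SFMA and 0 in NL-SFMA, at least 20.2-fold lower with a floor of 3 counts in NL-SFMA. It was also listed at 0 FPKM in N-SFMA and in L-SFMA, so its reads came from the SFMA library alone. Efcab15 had 32 counts in SFMA and 0 in NL-SFMA, at least 8.61-fold lower by the same floor, with 0.673 FPKM in N-SFMA and 0.318 in L-SFMA. Nppa, which encodes the atrial natriuretic peptide, had 23 counts in SFMA and 0 in NL-SFMA, at least 6.19-fold lower. Ttr, the thyroxine carrier transthyretin that choroid plexus makes in quantity, had 13 counts in SFMA and 0 in NL-SFMA, at least 3.50-fold lower, and stood at 0.542 FPKM in N-SFMA and 1.02 in L-SFMA. All of these lay close to the threshold of 1 FPKM in SFMA.

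Counts under 50 in the higher library were found for 632 of the 12184 compared genes. Among them were 187 of the 1007 higher genes and 12 of the 891 lower genes. Pearson's r between the GC content of the promoter window and the length-removed difference was 0.00 across the 9143 matched genes, which are not independent replicates and come from a single pair of libraries.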
